A study of Ovis aries with 3 samples.

Results

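Neural tube progenitors are the dividing cells of the embryonic spinal cord and brain, and they were followed here in whole sheep embryos. Cells were selected on their own counts, being chosen by at least 1 unique molecular identifier (UMI, 1 counted transcript molecule) of both *SOX2* and *PAX6*, at most 1 of the neuronal genes *NEFM*, *NEFL*, *STMN2* and *INA* detected, and under 5 UMIs of the red cell gene *AHSP*. In all, 1745 of 31576 kept cells met this rule. The E19 HSTS library gave 618 such progenitors, the E19 HS library 826 and the E16 HS library 301. HSTS is the Hulunbuir short-tailed sheep, which the study genotyped as homozygous for a coding mutation of the transcription factor gene *T*, and HS is the Hu sheep, which carried the wild-type allele. Embryos were taken at day 19 (E19) or day 16 (E16), digested with collagenase, treated with a lysis buffer for red cells, and captured in droplets. Each condition was 1 library, so breed, stage, embryo and library cannot be told apart, and no difference between conditions could be tested. The label of the E16 HS library names 1 embryo, whereas the study describes 3 embryos of this kind, and whether cells were pooled was not settled. Where 3 values stand together without names, they are for E19 HSTS, then E19 HS, then E16 HS. Levels are UMIs per 1000000 UMIs of the same cells (CPM), and every interval is exact, at the 95% level, and covers counting error only.

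In the vertebrate neural tube, progenitors line the central canal, divide there, and leave the cycle as neurons. Along the body axis they differ by HOX genes, which are off in the forebrain and switched on in overlapping series from the hindbrain to the tail end of the spinal cord. Across the dorsoventral axis they differ by homeodomain genes such as *PAX3*, *DBX2* and *NKX6-1*, which read signals of the roof plate and floor plate. *PAX6* and *SOX2* are also used together in the optic vesicle, so the rule can take in cells of the eye field as well as of the cord.

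The libraries held 107817481, 94754580 and 128271878 UMIs as deposited. The progenitors contributed 5819134, 7271947 and 3002502 of these, with median depths of 8548, 7801 and 8640.0 UMIs per cell, against 8688, 6783 and 9054 in the other kept cells. Their median mitochondrial share was 3.03%, 2.56% and 2.81%. Between 31 and 37 barcodes were shared by each pair of libraries among kept cells, and 1 by progenitors, of the E19 libraries. *T* itself had 0 UMIs in the progenitors of both E19 libraries and 1 UMI in those of E16 HS, so these cells give no reading of the gene that differs between the breeds.

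Progenitors made up 6.43% (5.94 to 6.93), 7.77% (7.27 to 8.30) and 2.66% (2.37 to 2.97) of kept cells. The E16 share lay below both E19 shares, and the E19 intervals did not overlap. Kept cells also take in cells with 5 or more *AHSP* UMIs, which the rule excludes. These were 2499 of 9618, 1401 of 10629 and 1993 of 11329 kept cells. Shares without them were not computed, so the order of the E19 libraries is read for this denominator only. With 2 or more UMIs of both genes asked for, the E19 shares came together, at 3.11% and 3.16%, above 0.989% in E16 HS. After each cell was thinned to 3000 UMIs, with 1106, 1345 and 1317 shallower cells left out, the shares were 3.31%, 4.03% and 1.23%, in the same order. Cells with 5 or more *AHSP* UMIs should lack *SOX2* and *PAX6*, and measure the free RNA in the droplets. Both genes were found together in 0.760%, 0.642% and 0.652% of them, at median depths of 17925, 17742 and 14233 UMIs, and in 0.160%, 0.143% and 0.0509% after thinning.

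Most progenitors passed the rule on few molecules. *PAX6* was seen as exactly 1 UMI in 292 of 618, 442 of 826 and 166 of 301 progenitors, and the medians were 2, 1 and 1 UMIs with maxima of 12, 13 and 12. *SOX2* reached medians of 4, 4 and 3 UMIs and maxima of 27, 19 and 26. Of the cells with both genes, 74 of 711, 118 of 952 and 88 of 399 were set aside for having 2 or more neuronal genes, which is 10.4%, 12.4% and 22.1%.

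The edges of the rule are given as a description. Progenitors with a single UMI of each gene (40, 81 and 44 cells) held *IRX3* at 53.5, 67.8 and 52.8 CPM, and those with 2 or more of each (299, 336 and 112 cells) at 110.3, 91.5 and 133 CPM. Just outside, cells with *SOX2* but no *PAX6* held *IRX3* at 43.2, 45.6 and 51.8 CPM, and cells with neither held it at 11.9, 14.8 and 13.2 CPM. *POU3F2* stood at 38.9, 23.5 and 6.45 CPM in the cells with *SOX2* alone and at 0.861, 0.860 and 0.197 CPM in the cells with neither.

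The label was checked against the markers that the rule did not use. *IRX3*, an Iroquois homeodomain gene of the neural plate and cord, was at 103 CPM (94.7 to 111), 82.6 CPM (76.2 to 89.5) and 109 CPM (97.4 to 121) in the progenitors. In the other kept cells it was at 16.4, 21.5 and 18.5 CPM, so all 3 libraries had it higher in the progenitors. *POU3F2*, a POU domain factor of neural precursors, was at 36.4 CPM (31.7 to 41.7), 28.5 CPM (24.7 to 32.6) and 21.3 CPM (16.4 to 27.2), against 6.08, 5.92 and 1.17 CPM. Both fixed markers thus stood with the rule genes *SOX2* (516, 486 and 398 CPM) and *PAX6* (231, 228 and 198 CPM). These ratios come from the contrast that chose the cells, and they describe the progenitors without testing them.

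A list of 22 pan-neural progenitor genes stood at 2.65, 1.96 and 2.02 times the other cells. Its sum was 1637, 1456 and 1379 CPM against 617, 742 and 682 in the other cells. *NES*, the intermediate filament nestin, was its most abundant member with 831, 725 and 652 CPM against 313, 384 and 300.1. *CDH2*, the N-cadherin of neural epithelium, followed the same order with 139, 103 and 72.6 CPM. *LIN28B*, an RNA-binding protein of early progenitors, showed the opposite one, with 306, 311 and 345 CPM. *FABP7*, a fatty acid binding protein of radial glia, had 62.4, 90.6 and 59.0 CPM. *SOX9*, which also marks neural crest and cartilage, was above the other cells in E19 HSTS, with 56.9 against 37.8 CPM, and close to them in the HS libraries, with 42.4 and 36.6 CPM against 45.1 and 34.4. *SOX1* (1.20, 1.10 and 0.666 CPM) and *HES5* (2.92, 2.20 and 2.00 CPM), both classic progenitor genes, were near the limit of detection.

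**Figure D1:**
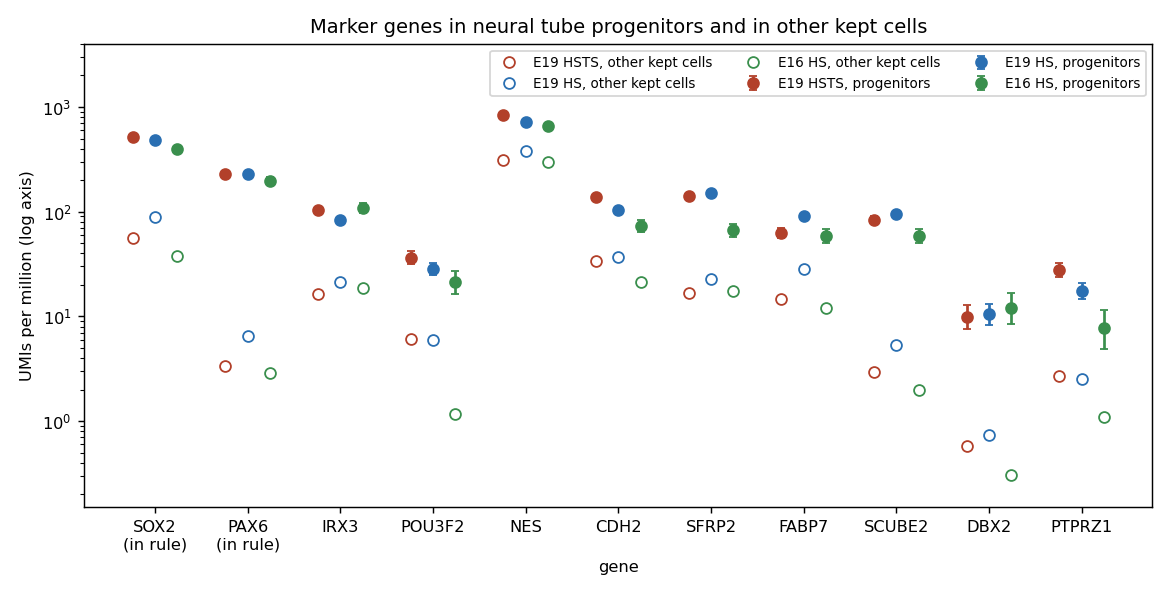
Levels of marker genes in neural tube progenitors (filled) and in the other kept cells (open) of the 3 libraries, in CPM on a log axis, with exact Poisson intervals for counting error. *IRX3* and *POU3F2*, which the rule did not use, stand higher in the progenitors of all 3 libraries, for example at 103, 82.6 and 109 CPM for *IRX3* against 16.4, 21.5 and 18.5 CPM.

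Across all genes, 54 of 9528 (0.567%) had a ratio of progenitors to other kept cells of at least 4 in all 3 libraries, with a count of 0 set to 3. Of these, 4 had 0 UMIs in the progenitors of a library, where they cannot be called higher, which leaves 50. After the rule's own *PAX6*, the gene that led by the smallest of its 3 ratios was *SCUBE2*, a secreted protein that helps to release Sonic hedgehog. It stood at 83.3, 94.9 and 59.0 CPM, which is 28.2, 17.9 and 29.8 times the other cells. *DBX2*, a homeodomain factor of intermediate progenitors, was at 9.97, 10.6 and 12.0 CPM, with ratios of 17.3, 14.4 and 38.9. *HES3*, a repressor of the HES family, was highest in E16 HS, with 10.7, 12.5 and 32.3 CPM.

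*CHL1*, a neural cell adhesion molecule, was at 61.7, 46.2 and 37.6 CPM, and *PTPRZ1*, a receptor phosphatase of neural precursors, at 27.7, 17.6 and 7.66 CPM. *MAP7*, a microtubule-associated protein, was at 57.1, 62.0 and 44.6 CPM, and *DPYSL5*, a protein of growing neurites, at 34.4, 27.8 and 19.0 CPM. *PTPRZ1* and *NDP*, which encodes the secreted ligand norrin (24.7, 19.9 and 5.66 CPM), were lowest in E16 HS. *PYGM*, a glycogen phosphorylase, was highest there, with 51.6 CPM against 33.7 in E19 HSTS. The remaining named genes were *SIX6*, *ALDH1A3*, *DMRTA1*, *RASGRP2*, *NEXMIF*, *FAM181B*, *USP44* and *EFCC1*. *ALDH1A3* is one of the 4 genes with a count of 0, in E16 HS, and was not higher in the progenitors there.

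Markers of other cell types were low in the progenitors for some lists and not for others. The neuron list, of which the rule limits 4 genes, was at 258, 223 and 409.7 CPM against 205, 237 and 65.2 in the other cells, and *STMN2* made up 244, 209 and 398 CPM of it. The myeloid list was at 0, 0.275 and 0 CPM. Erythroid genes, limited by the rule through *AHSP*, stood at 0.0364, 0.0510 and 0.0874 times the other cells, and the mesenchyme list at 0.175, 0.153 and 0.235 times. In CPM, however, the mesenchyme list was at 86.3, 89.0 and 482, and the surface ectoderm list at 195, 274 and 423, both highest in E16 HS. Their part in the results that follow was not tested. Scrublet, a doublet caller, marked 2.00%, 0.452% and 1.72% of kept cells and its calls were not used, so no cell was removed. Among the 8% of kept cells with the highest doublet scores were 35, 51 and 24 progenitors, or 5.66%, 6.17% and 7.97% of them.

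Posterior HOX genes, here groups 4 to 10, were detected in most progenitors. At least 1 of 21 such genes was detected in 492 of 618 (79.6%, 76.2 to 82.7), 513 of 826 (62.1%, 58.7 to 65.4) and 225 of 301 progenitors (74.8%, 69.4 to 79.6). At 3000 UMIs per cell the shares were 70.7%, 48.9% and 54.1%, so the E19 HSTS share stayed the highest and E16 HS drew near to E19 HS. Cells with 5 or more *AHSP* UMIs, at their higher depth, had such a gene in 9.88%, 8.42% and 11.3%, and in 3.29%, 2.93% and 4.63% when thinned. Genes of groups 9 and 10, which begin at the thoracic and lumbar cord, were found in 62.5%, 41.0% and 42.9% of progenitors, and in 43.3%, 26.4% and 26.4% after thinning.

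The summed level of these 21 genes was 579 CPM (559 to 598), 355 CPM (341 to 369) and 389.7 CPM (368 to 413). These genes are also used in the trunk mesoderm, and the other kept cells had 246, 231 and 258 CPM, so the ratios were 2.35, 1.54 and 1.51. Not every gene went this way, as the intervals of *HOXD9* and *HOXC10* in E16 HS lay below 1. With cells thinned and the rule applied anew the sums were 630.0, 396 and 358 CPM, which turned the order of the HS libraries. *HOXB9* led in each library with 127, 76.2 and 75.6 CPM, followed by *HOXA7* (89.9, 61.5 and 61.9) and *HOXC9* (81.8, 50.2 and 48.0). E19 HSTS had the highest value of all 3 genes, and the HS libraries lay close together. *HOXC10* (4.30, 1.79 and 0.999 CPM) and *HOXD10* (1.55, 0.550 and 0.333 CPM) closed the series with 25, 13 and 3 and with 9, 4 and 1 UMIs. The mesenchyme list in the progenitors with a posterior HOX gene and no optic gene was at 96.1, 103 and 572 CPM, against 70.6, 142 and 85.3 CPM in optic cells, and its part in these levels was not tested.

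The hindbrain genes had another order. *HOXA2*, the most anterior HOX gene of the hindbrain, was at 25.6, 30.8 and 19.7 CPM. *HOXA3* (27.7, 19.4 and 39.3 CPM) and *HOXD3* (17.0, 14.7 and 23.0 CPM) were highest in E16 HS. *EGR2*, a gene of rhombomeres 3 and 5, had 0, 1 and 0 UMIs. *OTX2*, of the forebrain and midbrain, had 1, 5 and 0 UMIs. The list of the midbrain-hindbrain boundary was at 12.0, 15.7 and 18.3 CPM, against 14.1, 17.4 and 28.9 in the other cells, with 6, 6 and 5 of its 9 genes detected and *EN2*, *PAX5* and *WNT1* at 0 in each library.

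**Figure D2:**
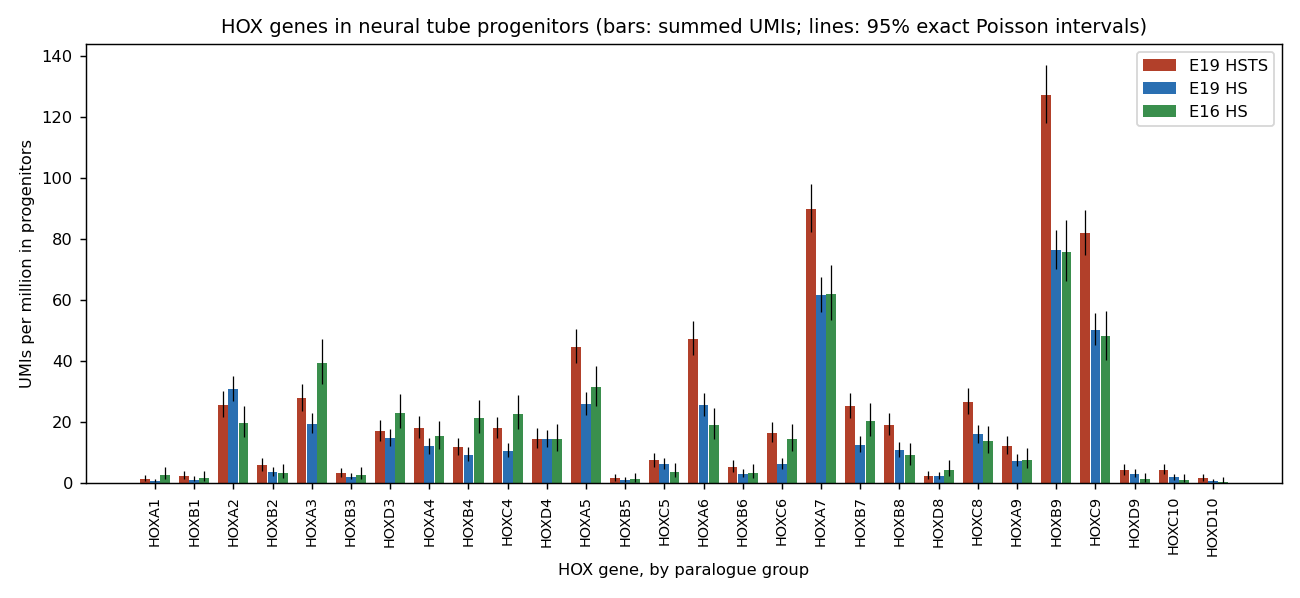
Levels of HOX genes in neural tube progenitors of the 3 libraries, in CPM, ordered from anterior to posterior groups, with exact Poisson intervals for counting error. *HOXB9*, *HOXA7* and *HOXC9* are highest in E19 HSTS (127, 89.9 and 81.8 CPM), whereas *HOXA3* is highest in E16 HS (39.3 CPM).

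A small group of progenitors carried genes of the eye field in place of HOX genes. At least 1 UMI of *SIX6*, *SIX3* or *RAX*, homeodomain factors of the optic field, was found in 32 (5.18%), 75 (9.08%) and 15 progenitors (4.98%), with thinned shares of 3.00%, 5.74% and 3.04%. In cells with 5 or more *AHSP* UMIs these genes were found in 0.120%, 0.143% and 0.151%. A posterior HOX gene accompanied them in 1 of 32, 2 of 75 and 2 of 15 cells (3.12%, 2.67% and 13.3%), whereas it was found in 83.8%, 68.0% and 78.0% of the progenitors without an optic gene. The optic cells were deeper in the E19 libraries, with medians of 11458 and 10993 UMIs against 8369 and 7650.0 in cells with a posterior HOX gene. In E16 HS they were at 8497 against 9110.0.

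Progenitors were placed in 4 classes for the rest of the description, by optic genes, posterior HOX genes, anterior HOX genes (groups 1 to 3) alone, or none of these. The few cells with both an optic and a posterior HOX gene were counted under both in shares and as optic in levels. These classes were set after values had been seen. Cells with anterior HOX genes alone numbered 28 (4.53%), 88 (10.7%) and 24 (7.97%), and their thinned shares were 4.17%, 10.6% and 9.46%. Cells with neither an optic nor a HOX gene numbered 67 (10.8%), 152 (18.4%) and 39 (13.0%). This last class grew to 22.2%, 34.8% and 33.8% on thinning, so more cells fall into it at lower depth. E19 HS had the largest as-counted share of all 3 classes without a posterior HOX gene.

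**Figure D3:**
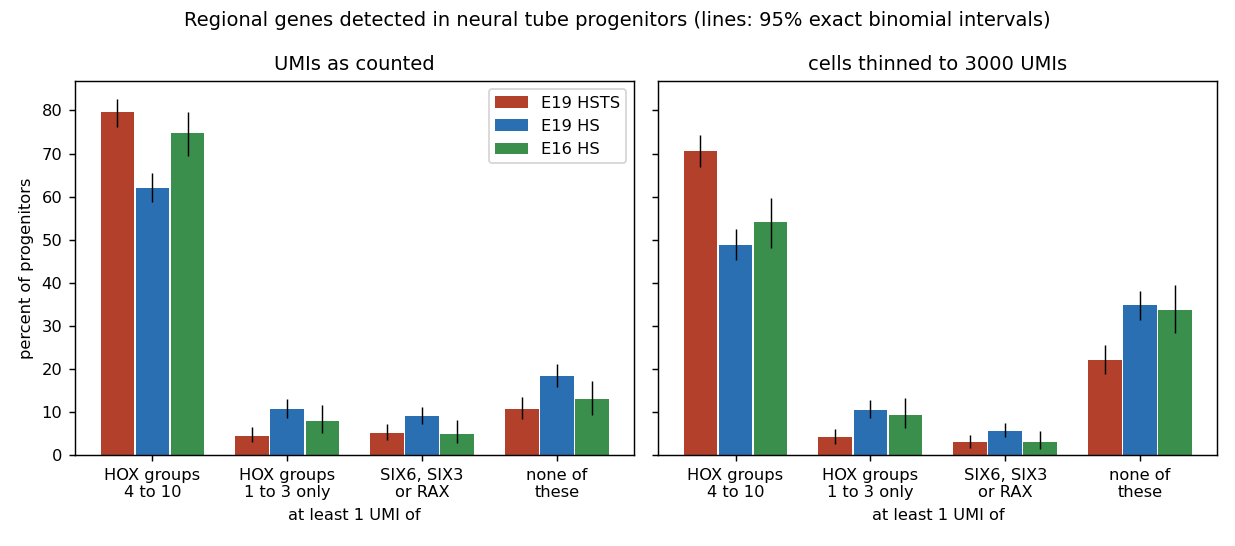
Share of neural tube progenitors in each of 4 regional classes, in percent of the progenitors of each library, as counted (left) and after thinning to 3000 UMIs (right), with exact binomial intervals as lines and with cells of both optic and posterior HOX genes in both classes. Cells with a posterior HOX gene are the largest class as counted in each library (79.6%, 62.1% and 74.8%), and E19 HS has the largest optic share (9.08%).

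*IRX3* was lowest in the optic cells. It was at 12.2, 8.56 and 0 CPM in optic cells (5, 8 and 0 UMIs), at 118, 104 and 119.7 CPM in cells with a posterior HOX gene and at 103, 106 and 112 CPM in cells with an anterior HOX gene alone. Cells with neither an optic nor a HOX gene lay between, at 49.6, 48.5 and 78.2 CPM. *POU3F2* behaved alike, with 7.30, 3.21 and 0 CPM in optic cells and 38.8, 36.6 and 21.8 CPM in posterior HOX cells. Within posterior HOX cells the *IRX3* intervals of the 3 libraries (108 to 128, 94.8 to 114 and 106 to 135 CPM) overlapped. The optic cells thus hold little of the label's markers *IRX3* and *POU3F2*, although they meet the rule.

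Retinoid genes also followed the classes. *CRABP1*, which binds retinoic acid in the cytoplasm, reached 7549.6, 4239 and 4196 CPM in cells with anterior HOX genes alone, against 368, 564 and 523 CPM in posterior HOX cells. All 3 libraries shared this order. *ALDH1A1* and *ALDH1A3*, enzymes that make retinoic acid in the eye, were in the optic cells of the E19 libraries, at 199.5 and 135 CPM for *ALDH1A1* and 51.1 and 103 CPM for *ALDH1A3*. Each had 0 UMIs in the posterior HOX cells of both E19 libraries. In the 15 optic cells of E16 HS both were at 0, with exact upper limits of 24.2 CPM for *ALDH1A1*.

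Further genes set the optic cells of the E19 libraries apart from the posterior HOX cells, and those given here were chosen after their values were seen. *VMO1* was at 195 and 126 CPM in the optic cells of E19 HSTS and E19 HS against 1.09 and 0.687 CPM, and *DLK1*, an imprinted Notch-like ligand, at 1046 and 1192 CPM against 14.4 and 16.7. Pigment genes were among them, with *PMEL*, the matrix protein of melanosomes, at 217 and 310.4 CPM, *MITF*, the pigment cell regulator, at 41.4 and 41.7, and *TYRP1*, a melanin enzyme, at 12.2 and 38.5. *PMEL* was at 6.56 CPM in the optic cells of E16 HS, from 1 UMI. *CLDN7*, of tight junctions, was at 97.3 and 117 CPM against 4.79 and 2.98. The surface ectoderm list was at 547, 806 and 813 CPM in the optic cells and at 433, 526 and 759 CPM in the cells with neither an optic nor a HOX gene, against 143, 125 and 381 CPM in posterior HOX cells. On the other side were *SCUBE2*, with 0 and 1.07 CPM in optic cells against 101 and 138, *CHL1*, with 0 and 1.07 against 74.9 and 66.9, and *IRX5*, with 4.87 and 2.14 against 52.1 and 40.3.

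**Figure D4:**
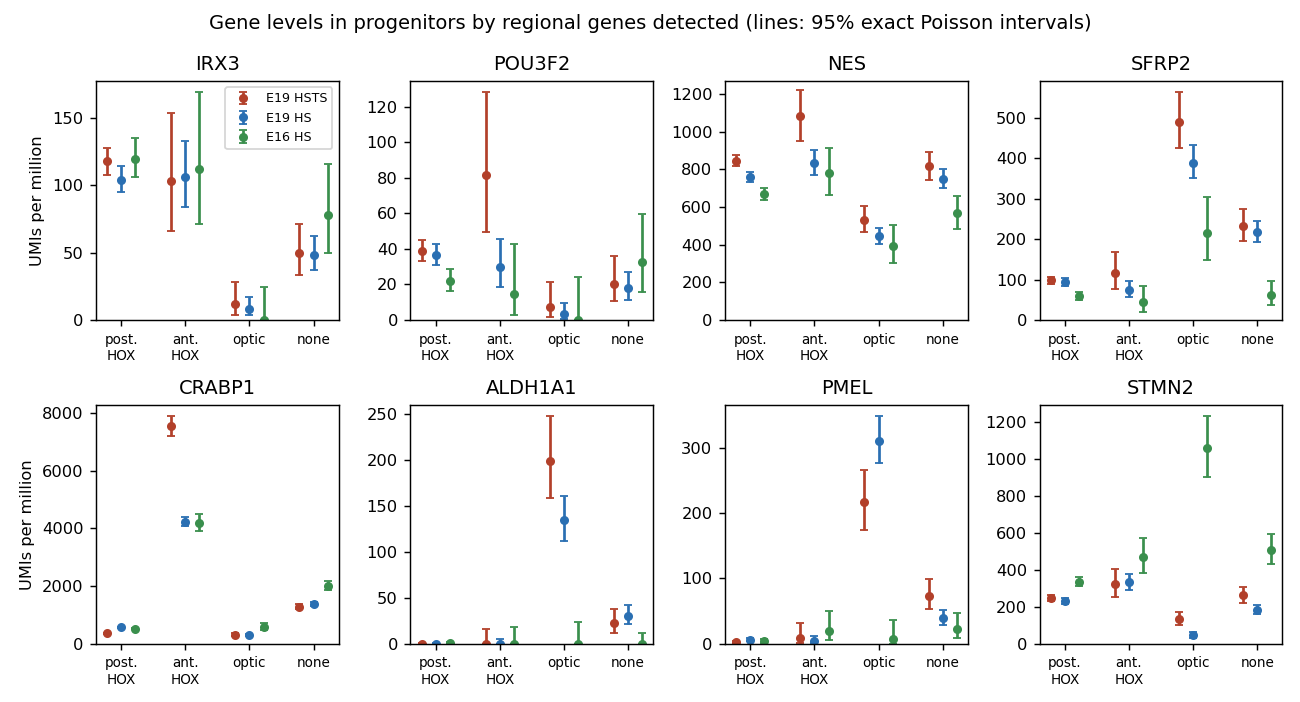
Levels of marker genes in the 4 regional classes of neural tube progenitors in each library, in CPM on linear axes that differ between genes, with exact Poisson intervals for counting error as lines. *IRX3* is low in the optic class (12.2, 8.56 and 0 CPM), and *CRABP1* is highest in the class with anterior HOX genes alone (7549.6, 4239 and 4196 CPM).

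Dorsoventral position was read in the posterior HOX cells. Over the 3 libraries, 262 of 1225 (21.4%, 19.1 to 23.8) had *PAX3* or *PAX7*, factors of the dorsal neural tube. *DBX1* or *DBX2*, of the intermediate zone, were in 106 (8.65%) and *NKX6-1* or *NKX6-2*, of the ventral zone, in 71 (5.80%). In cells with 5 or more *AHSP* UMIs, the same 3 pairs were found in at most 1.76%, 0.357% and 0.760% in any library. By library, *PAX3* or *PAX7* was in 27.1%, 17.4% and 17.9% of cells with a posterior HOX gene.

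Dorsal and ventral genes seldom met in 1 cell. *NKX6-1* or *NKX6-2* was found in 2 of 262 cells with *PAX3* or *PAX7* (0.763%, 0.0926 to 2.73) and in 69 of 963 without them (7.17%, 5.62 to 8.98). The cells with *PAX3* or *PAX7* were the deeper ones in each library, for example with medians of 10185 against 7939.5 UMIs in E19 HSTS. For the intermediate genes the libraries went different ways. *DBX1* or *DBX2* was in 4.51%, 6.74% and 17.5% of cells with *PAX3* or *PAX7* and in 10.6%, 8.53% and 7.10% of those without, and over all libraries in 7.25% against 9.03%. *IRX3* was in 80 of 106 cells with a *DBX* gene (75.5%, 66.2 to 83.3) and in 53.2% of the rest (50.2 to 56.1). By library the shares were 79.5%, 66.7% and 85.0% against 54.8%, 50.1% and 56.7%. The E19 HS intervals overlapped (50.5 to 80.4 and 45.5 to 54.7). In E16 HS the cells with a *DBX* gene were deeper, with medians of 12478 against 8834 UMIs. These cells come from 3 libraries and are not replicates.

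In all progenitors, *PAX3* was at 44.3, 27.0 and 27.6 CPM and *IRX5*, a partner of *IRX3*, at 45.0, 34.4 and 29.6 CPM. The ventral genes were scarce, with *NKX6-1* at 3.44, 3.85 and 3.33 CPM and *OLIG2*, of motor neuron progenitors, with 10, 3 and 0 UMIs. *NKX2-2* and *FOXA2*, of the ventral-most cord and floor plate, had 0 UMIs in each library. *ATOH1*, *GSX1* and *PTF1A*, which specify dorsal interneurons, were at 0 as well. The rule itself asks for *PAX6*, which is low in the ventral-most and dorsal-most cord.

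The progenitors carried more cell cycle transcripts than the other cells. *TOP2A*, the topoisomerase of S to M phase, was at 1211, 934 and 994 CPM against 572, 497 and 602. It was detected in 79.3%, 71.4% and 83.4% of progenitors, and after thinning in 65.5%, 60.0% and 67.9% against 47.2%, 41.8% and 56.7% of the other cells. In cells with 2 or more neuronal genes the thinned shares were 40.0%, 39.1% and 60.8%. A list of 13 G2 and M phase genes was at 2783, 2297 and 2489 CPM against 1541, 1362 and 1901, and 15 S phase genes were at 922, 773 and 977 against 641, 613 and 822. In the cells with 2 or more neuronal genes the G2 and M phase list was at 1949, 1553 and 2261 CPM and the S phase list at 767, 689 and 1014 CPM, so in E16 HS the S phase list was not higher in the progenitors than in these cells. *CDKN1C*, an inhibitor that accompanies cell cycle exit, had a lower level than in the other cells, with 229, 208 and 170.2 CPM against 279, 385 and 348. It was detected in 64.1%, 60.3% and 59.8% of progenitors against 54.8%, 63.1% and 58.3% of the other cells. Thinned, the shares were 37.3% (33.5 to 41.3), 37.8% and 31.1% against 40.0%, 48.5% and 38.7%.

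*STMN2*, the neuronal tubulin regulator of which the rule allows any amount when it is the sole neuronal gene, was found in 62.5%, 56.2% and 77.1% of progenitors. Thinned, the shares were 41.7%, 38.2% and 59.1%, against 10.5%, 13.3% and 7.80% of the other kept cells and 1.28%, 1.22% and 1.12% of cells with 5 or more *AHSP* UMIs. In the cells with 2 or more neuronal genes they were 69.9%, 70.9% and 52.7%. Those cells were chosen partly on *STMN2*, and the rule limits it in the progenitors, so no order between the groups is read from these shares. The level of *STMN2* in the progenitors was 244, 209 and 398 CPM, highest in E16 HS. The neurogenin genes were near the floor in contrast, with *NEUROG2* at 1.20, 0.550 and 0.999 CPM and *NEUROG1* at 1.37, 0.963 and 0.333. *NEUROD4*, which acts downstream of them, had 29, 27 and 0 UMIs.

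Notch signalling keeps neighbouring progenitors from differentiating together. Its ligand genes *DLL1* (24.2, 13.2 and 36.3 CPM) and *JAG1* (33.7, 28.1 and 33.0 CPM) exceeded the receptor *NOTCH1* (4.98, 2.89 and 2.33 CPM), in counts from the 3′ ends of transcripts. *LFNG*, which modifies Notch, was at 11.0, 12.5 and 6.99 CPM. The target *HES1* was at 8.25, 5.50 and 2.33 CPM. *DLL1* was lowest in E19 HS, and *HES1* in E16 HS.

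Hedgehog pathway genes were present in the receiving cells. *SHH*, the ligand, had 1 UMI in each library. Its receptor and target *PTCH1* was at 23.0, 19.5 and 24.3 CPM, above the other cells (9.67, 10.2 and 12.6), and *HHIP*, a decoy for the ligand, at 16.5, 8.11 and 12.3 CPM. *GLI3*, mainly a repressor, was at 10.1, 11.6 and 10.7 CPM and *GLI1*, an activator and target, at 4.30, 2.06 and 6.66 CPM. Summed over 11 genes the pathway was at 75.8, 57.1 and 77.9 CPM against 32.4, 32.3 and 39.5, lowest in E19 HS.

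Genes of the WNT, FGF and retinoid pathways were measured as well. Of WNT genes, the inhibitors *SFRP1* (138, 112 and 82.9 CPM) and *SFRP2* (139.9, 151 and 66.3 CPM) were the most abundant, and both were lowest in E16 HS. *SFRP2* was at 491, 389.6 and 216 CPM in the optic cells. The receptor *FZD10* was highest in E16 HS, with 19.1, 13.8 and 41.0 CPM. Of FGF genes, *FGFR1* (71.7, 56.8 and 52.0 CPM) and *FGFR2* (37.8, 24.1 and 34.6) were the most abundant receptors, and the target *DUSP6*, at 49.7, 33.1 and 59.3 CPM, lay above *FGFR2* in each library and above *FGFR1* in E16 HS. *CRABP2*, which carries retinoic acid to the nucleus, was highest in E16 HS, with 113, 124 and 322 CPM, and *ALDH1A2*, which makes retinoic acid in mesoderm, was at 1.37, 0.413 and 1.33 CPM against 6.62, 6.91 and 6.65 CPM in the other cells.

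The comparison of E19 HSTS with E19 HS asked how the progenitors of the short-tailed breed differ from those of the Hu sheep at the same age. A gene is named past 2-fold where its ratio is at least 2 in either direction and the exact interval leaves out 1. Of 9130 genes with at least 20 UMIs over both libraries, 299 (3.27%) were past 2-fold higher in E19 HSTS and 133 (1.46%) lower. In the other kept cells of the same libraries, 25 of the 299 and 63 of the 133 were past 2-fold in the same direction. The median ratio was 1.15, or 0.20 on the log2 scale. With TMM scaling, which multiplies every ratio by 0.882 and takes the median to 1.01, 163 genes were higher and 220 lower, so that the higher genes fell from 69.2% to 42.6% of the calls. With 1 library each, these counts compare the libraries and not the breeds.

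Posterior HOX genes leaned towards E19 HSTS. Of 19 posterior HOX genes measured, 3 (*HOXC6*, *HOXB7* and *HOXC10*) were past 2-fold higher in E19 HSTS and 0 lower, beside 3.27% and 1.46% of all genes, and their median ratio was 1.67 against 1.15 for all genes. *HOXC6* was at 16.5 CPM against 6.05, a ratio of 2.73 (1.89 to 3.99), where the other kept cells had 1.25. *HOXB7* stood at 2.00 (1.53 to 2.63) against 0.931 in the other cells. *HOXC10* was at 2.40 (1.18 to 5.12), from 25 UMIs in 20 progenitors of E19 HSTS and 13 UMIs in 9 of E19 HS. In the other cells it was at 2.70 against 2.03 CPM. *HOXB9*, with a ratio of 1.67 (1.49 to 1.87; 1.09 in the other cells), *HOXC9*, with 1.63 (1.42 to 1.87; 0.932), and *HOXA7*, with 1.46 (1.29 to 1.66; 0.865), stayed under 2-fold. *HOXA2* pointed the other way with 0.831 (0.671 to 1.03).

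The makeup of the progenitors moved along with the HOX genes, since E19 HS held the larger shares of optic cells and of cells with anterior HOX genes alone. Without the 66, 123 and 32 progenitors that had a UMI of any forebrain or optic gene, *HOXC6* was at a ratio of 2.59 (1.76 to 3.86) and *HOXB9* at 1.53 (1.37 to 1.72), while *HOXB7* (1.91) and *HOXC10* (1.97, 0.948 to 4.25) were no longer past 2-fold. With TMM scaling *HOXC6* was at 2.40 and *HOXB7* at 1.77. Fewer cells with these genes and less of their RNA per cell cannot be told apart, since the cells were classed by the same genes.

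Other lists gave few genes. Of 9 hedgehog pathway genes, *HHIP* (ratio 2.03, 1.46 to 2.86; 1.01 in the other cells) and *GLI1* (2.08, 1.06 to 4.25) were past 2-fold higher, and the list's median ratio was 1.52. Single genes of other lists were past 2-fold, to be read against the 3.27% of all genes called higher. Of 16 pan-neural genes, *PROM1*, a membrane protein of the apical surface, was higher (2.07, 1.55 to 2.79), of 8 neurogenesis genes *GADD45G* (2.24, 1.76 to 2.87), of 10 Notch genes *HEY1* (2.50, 1.01 to 6.75) and of 8 FGF genes *FGF13* (2.50, 1.33 to 4.88). Of the caudal genes, *CDX2* had a ratio of 2.05 (1.22 to 3.52) from 41 and 25 UMIs, and of 1.53 (0.850 to 2.80) without the cells with a forebrain or optic gene. With TMM scaling *HHIP* (1.79), *GLI1* (1.84), *PROM1*, *GADD45G* (1.98) and *CDX2* (1.81) were under 2-fold, and the interval of *HEY1* took in 1. Of 6 forebrain and optic genes, *SIX6* (2.46-fold) and *HESX1* (2.06-fold) were lower in E19 HSTS, and of 7 retinoid genes *ALDH1A3* (2.98-fold), beside 1.46% of all genes. Without the cells with a forebrain or optic gene *ALDH1A3* was at 0.554 (0.233 to 1.23), no longer past 2-fold. The forebrain and optic list as a whole was at 38.0 CPM against 80.7, but at 35.5 against 31.2 with cells thinned and the rule applied anew. None of 15 S phase and 13 G2 and M phase genes was past 2-fold, with medians of 1.25 and 1.20. *IRX3* was at a ratio of 1.24 (1.11 to 1.39), whereas it was lower in the other cells of E19 HSTS (0.761). Its interval took in 1 without the cells with a forebrain or optic gene (1.11, 0.990 to 1.25) and with TMM scaling (1.10, 0.978 to 1.23).

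The largest differences lay outside these lists. *GAPDH*, a glycolytic enzyme, had 40 UMIs in the progenitors of E19 HSTS and 14668 in those of E19 HS, 293-fold fewer per UMI, and was 323-fold lower in the other kept cells too. Whether *GAPDH* reads were counted alike in both libraries could not be checked from the counts. *ZFAND2A*, a stress-induced zinc finger gene, had 0 against 60 UMIs, 16.0-fold lower with the 0 set to 3, and *CIART*, a circadian repressor, was 7.20-fold lower. *TSKU*, a secreted proteoglycan, was 6.63-fold lower and *GRP*, gastrin-releasing peptide, 5.26-fold. On the higher side were *HSPA1A*, an inducible heat shock protein, at 4.61 (6.06 in the other cells), *QDPR*, which recycles tetrahydrobiopterin, at 4.34 (3.51), and the ribosomal protein gene *RPS6* at 3.59 (2.92), so that these 3 genes were past 2-fold in other cells of the library as well. *RPS6* may share reads with near-identical copies, which was not examined, and its counts are uncertain. *TNNT1*, slow troponin T (3.34, 1.99 in the other cells), *U1* (3.15, 1.72), *SKAP2*, a Src adaptor (2.86, 1.22), *ING3*, a chromatin factor (2.70, 1.09), and *LIFR*, the leukaemia inhibitory factor receptor (2.67, 0.801), were nearer to 1 in the other cells. *AHSP* was at 3.55, within the limit that the rule sets. Among genes without a symbol, ENSOARG00020009346 had 315 against 0 UMIs, 131-fold higher with the 0 set to 3 (779 in the other cells). ENSOARG00020018534 had 23 against 327, 11.4-fold lower.

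Plasma protein genes of liver and yolk sac were lower in E19 HSTS through a single cell. A single progenitor of E19 HS held 700 of the 732 UMIs of *SERPINA1*, 54 of 58 of *AMBP*, 232 of 252 of *APOA2*, 38 of 67 of *APOC2* and 262 of 282 of *AHSG*. With the highest cell left out of both libraries, the ratios became 1.60, 0.937, 1.75, 0.345 and 2.81, so that *APOC2* alone stayed past 2-fold lower.

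**Figure D5:**
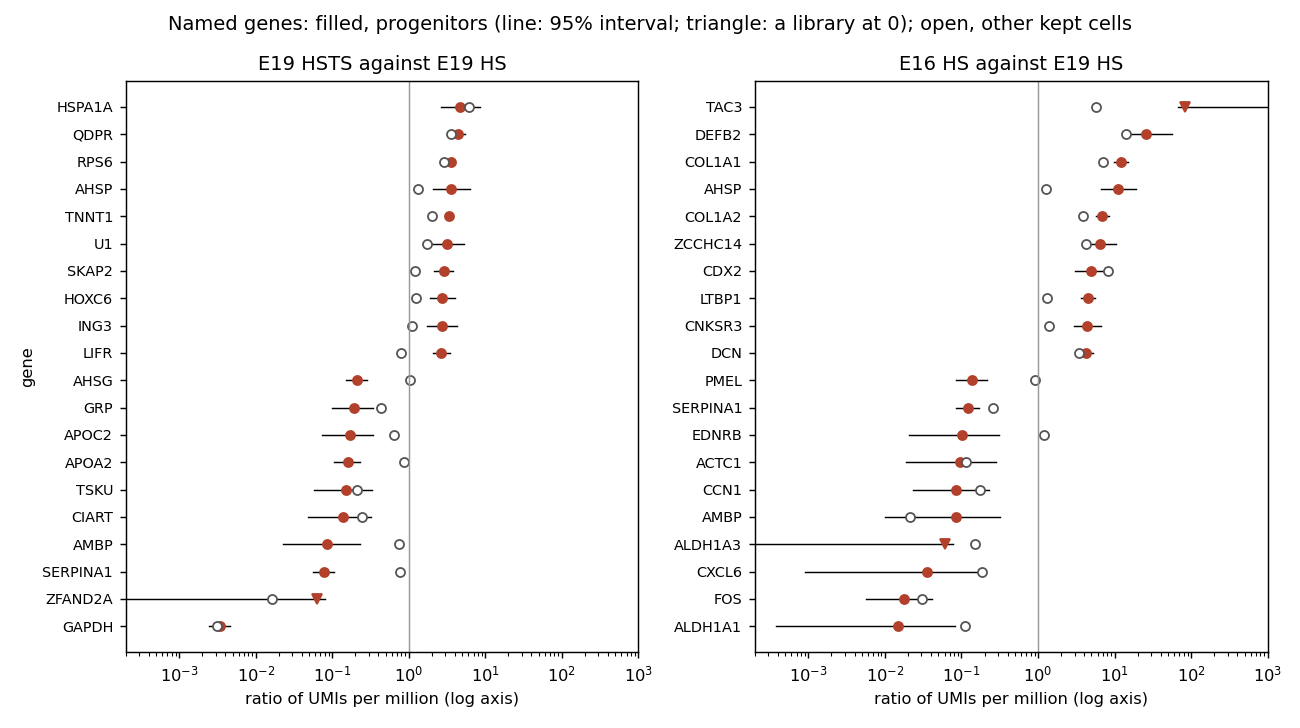
Ratios of the named genes in neural tube progenitors, with E19 HS as the denominator in both panels (E19 HSTS left, E16 HS right), on log axes with exact intervals as lines, beside the ratio in the other kept cells (open). Triangles mark genes at 0 in a library, whose ratio is taken with the 0 set to 3. *GAPDH* is far below 1 in both kinds of cells (293-fold and 323-fold lower in E19 HSTS), whereas *HOXC6* is at 2.73 in the progenitors and 1.25 in the other cells.

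The comparison of E16 HS with E19 HS asked how progenitors of the same breed differ between the stages. It shares the E19 HS library with the comparison above, so the 2 sets of ratios are not independent. Of 8566 genes, 412 (4.81%) were past 2-fold higher in E16 HS and 281 (3.28%) lower, and 162 and 125 of these were past 2-fold in the other kept cells as well. The median ratio was 1.11 (log2 0.15). With TMM scaling, which multiplies ratios by 0.885, 251 genes were higher and 404 lower, which took the higher genes from 59.5% to 38.3% of the calls.

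The 2 genes of the caudal list with at least 20 UMIs over both libraries stood higher in E16 HS, beside 4.81% of all genes past 2-fold higher. *CDX2*, a caudal homeobox gene, was at 17.0 CPM against 3.44, a ratio of 4.94 (3.01 to 8.32), and at 8.13 in the other cells, and *CDX4* had a ratio of 3.23 from 16 and 12 UMIs. Of 13 genes of the caudal list, 9 had a UMI in E16 HS progenitors and 6 in those of E19 HS. All but *CDX2* and *CDX4* had too few UMIs to be compared, and *CDX4* reached the minimum only with its E16 HS count. These 2 genes thus do not stand for the list. In E16 HS the whole list was at 29.0 CPM in the progenitors against 39.7 in the other cells. The mesenchyme list was also higher in the posterior HOX cells of E16 HS, at 572 CPM against 103 in E19 HS, and its part was not tested. *FGF8*, made at the tail end of the embryo and listed here with the midbrain-hindbrain boundary, was at 11.0 CPM against 3.16, a ratio of 3.47 (1.98 to 6.20). The other kept cells differed too, with 20.2 CPM in E16 HS against 6.92 in E19 HS. Its UMIs lay in 11 progenitors of each library, and after thinning in 3 of E16 HS and 4 of E19 HS. *T*, *CDX1*, *MSGN1* and *HES7*, of the tail bud and presomitic mesoderm, were at 0 or 1 UMI.

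Of 18 posterior HOX genes measured, *HOXB4* (ratio 2.31), *HOXC4* (2.14) and *HOXC6* (2.37) were past 2-fold higher in E16 HS and 0 lower, beside 4.81% and 3.28% of all genes, and the median ratio was 1.03 against 1.11 for all genes. *HOXB9* was at 0.992 (0.847 to 1.16) and *HOXC9* at 0.956 (0.782 to 1.16). *HOXA3*, of the hindbrain list, was higher, at 2.03 (1.57 to 2.61). With TMM scaling *HOXC4* (1.89) and *HOXA3* (1.79) were under 2-fold. Without the cells with a forebrain or optic gene so were *HOXB4* (1.93), *HOXC4* and *HOXA3* (both 1.86).

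Signalling genes differed singly, to be read against the 4.81% of all genes called higher and the 3.28% called lower. *DLL1* was higher in E16 HS progenitors by a ratio of 2.75 (2.07 to 3.66) and *DLL3* by 2.81, and these Notch ligands had ratios of 2.71 and 2.20 in the other cells. *DLL1* was detected in 24.2% of E16 HS and 8.81% of E19 HS cells with a posterior HOX gene. *CRABP2* (2.60, 2.37 to 2.85; 1.35 in the other cells), *RARG*, a retinoic acid receptor (2.54), *FZD10* (2.98, 2.27 to 3.92; 2.11), *GLI1* (3.23) and *SALL4*, a zinc finger gene of early progenitors (2.10, under 2-fold with TMM scaling), were also higher. *SFRP2* was 2.27-fold lower, with 0.771 in the other cells, and without the cells with a forebrain or optic gene its ratio was 0.555, under 2-fold. *ZIC1*, a neural plate zinc finger gene, was 3.10-fold lower, *HES1* 2.36-fold and *GADD45G* 2.60-fold. *NEUROD4* had 0 against 27 UMIs, 3.72-fold lower with the 0 set to 3.

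Single eye and pigment genes were lower in E16 HS, to be read against the 3.28% of all genes called lower. The forebrain and optic list was at 27.3 CPM against 80.7 in E19 HS, but at 29.8 against 31.2 with cells thinned and the rule applied anew. *SIX6* was 5.49-fold lower. *ALDH1A3* had 0 against 119 UMIs, 16.4-fold lower with the 0 set to 3. *ALDH1A1* had 1 against 164, a ratio of 0.0148 (0.000372 to 0.0834). *PMEL* was 7.22-fold lower in progenitors, with a ratio of 0.921 in the other cells. Without the cells with a forebrain or optic gene *PMEL* was at a ratio of 0.637 (0.341 to 1.13), no longer past 2-fold. *ALDH1A3* then had 0 against 21 UMIs, a ratio of 0.313 (0 to 0.421) with the 0 set to 3. *ALDH1A1* had 1 against 38, a ratio of 0.0576 (0.00142 to 0.341). *EDNRB*, the endothelin receptor of neural crest and pigment cells, had 3 against 71 UMIs (ratio 0.102, 0.0206 to 0.311), with 1.19 in the other cells. Without the cells with a forebrain or optic gene *EDNRB* was at 0.0939 (0.0189 to 0.286).

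*FOS*, *CCN1*, *COL1A1*, *COL1A2* and *DCN* differed in the other kept cells too. *FOS*, an immediate early gene, was 57.1-fold lower in E16 HS progenitors and 32.9-fold lower in the other cells, and *CCN1*, another, 11.7-fold and 5.67-fold. *ACTC1*, cardiac actin, had 3 against 77 UMIs (ratio 0.0944) and *CXCL6*, a chemokine, 1 against 68 (0.0356). Without the cells with a forebrain or optic gene *CXCL6* had 1 against 25 UMIs (0.0876, 0.00213 to 0.535). Without the highest cell of each library it had 0 against 61 (0.119 with the 0 set to 3). The collagen genes *COL1A1* (12.2, and 7.06 in the other cells) and *COL1A2* (6.94, 3.85) and decorin, *DCN* (4.21, 3.43), were higher in E16 HS, beside the mesenchyme list given above. A single E16 progenitor held 46.6% of the *COL1A1* UMIs and 56.3% of the *DCN* UMIs, and without the highest cell of each library the ratios were 10.6 and 3.50.

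Further genes were higher in E16 HS. *TAC3*, which encodes neurokinin B, had 104 against 0 UMIs, 84.0-fold higher with the 0 set to 3 (5.71 in the other cells). Its UMIs were in 5 progenitors, of which 1 held 45. Without that cell *TAC3* was 47.6-fold higher, again with the 0 set to 3. *DEFB2*, a defensin, was at 25.9 (14.2 in the other cells; 62 against 3 UMIs without the highest cell of each library), *ZCCHC14* at 6.40 (4.26), *LTBP1*, which binds latent TGF-beta, at 4.53 (1.31) and *CNKSR3*, a signalling scaffold, at 4.37 (1.41). *LTBP1* was detected in 130 of 301 E16 HS progenitors and 124 of 826 of E19 HS. *AHSP* had a ratio of 11.1, within the limit of the rule, and 1.26 in the other cells. The plasma protein genes *SERPINA1* (8.17-fold) and *AMBP* (12.0-fold) were lower through the single E19 HS cell named above, and without the highest cells their ratios were 1.59 and 0.605.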

How the data were processed

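The authors counted UMIs with Cell Ranger 6.1.2 on the sheep assembly Ovis_aries_genome_v1.0 and deposited raw counts, without normalization, for 11114, 12064 and 12645 barcodes. The deposited counts were checked to be whole numbers. Genes were used by symbol as listed (26478 listed genes, 24517 names, of which 16670 are symbols and the rest gene IDs, with 83 symbols on more than 1 gene summed), and *Hoxc8* is spelled as listed. Kept cells had 200 to 6000 genes, 1000 to 30000 UMIs and at most 10% of UMIs on symbols starting with MT-.

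UMIs were summed over cells with Python 3.11.15, numpy 2.4.6, scipy 1.17.1 and pandas 2.3.3. With 1 library per condition no test was made. Sums have exact Poisson intervals, shares exact Clopper-Pearson intervals and ratios exact conditional intervals, and PCR and cell sampling lie outside them. A count of 0 was set to 3 for a ratio. The ratio intervals and the 2-fold calls were run on simulated Poisson counts, without spread between cells or libraries. Those counts carry the same error that the intervals assume, so the simulation cannot show how the calls hold in real cells. TMM came from edgeR 4.0.16 (R 4.3.3), and doublet scores from Scrublet in scanpy 1.11.5.

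Genes named are those of the lists, for either direction the 10 symbols with the most extreme ratio past 2-fold, given 50 or more UMIs where the gene is higher, and the 20 highest by the smallest of 3 ratios over other cells, with at least 100 UMIs in progenitors. The members and lists were chosen with earlier results of these data known. E16 HSTS and the authors' clusters were not analysed here. No sequence or position is printed, as the annotation at hand is of another assembly.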

Additional observations from a re-analysis of the deposited data

How the results depend on the processing

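Across 11 settings and 32 results, 138 of 208 alternatives kept their value within its error or its count within 1.5 times, and the others moved. Orders between libraries turned on thinning. The forebrain and optic list, at 38.0 CPM in E19 HSTS against 80.7 in E19 HS, became 35.5 against 31.2, and the posterior HOX list, at 355 CPM in E19 HS against 389.7 in E16 HS, became 396 against 358. *IRX3*, at 103, 82.6 and 109 CPM, became 115, 102 and 103, and the hindbrain list, at 84.4 and 72.7 CPM in the E19 libraries, 86.3 and 96.3. In E16 HS the ventral list went from 6.33 to 13.6 CPM and the dorsal list from 44.0 to 13.6 CPM. The dorsal list of E19 HS went from 43.0 to 28.5 CPM. In the E19 libraries *POU3F2*, at 36.4 and 28.5 CPM, became 39.0 and 39.2, and the intermediate list, at 57.4 and 47.2 CPM, 52.0 and 54.4. The forebrain, *IRX3*, *POU3F2*, hindbrain, dorsal, intermediate and ventral orders are thus read as counted only. TMM scaling turned the balance of higher and lower calls in both comparisons. Where 3 values stand together they follow the order of libraries used above. Thinning to 3000 UMIs gave shares of 3.31%, 4.03% and 1.23%, *POU3F2* at 39.2 in E19 HS, forebrain and optic genes at 31.2 in E19 HS, and posterior HOX genes at 630.0, 396 and 358 CPM. It left 13 genes higher in progenitors, 50 lower in E19 HSTS, and 205 higher and 88 lower in E16 HS. A rule of 2 UMIs of both genes gave shares of 3.11%, 3.16% and 0.989%, *IRX3* at 91.5 CPM in E19 HS and 133 in E16 HS, and forebrain and optic genes at 15.5 and posterior HOX genes at 424 CPM in E16 HS. With no neuronal gene allowed the shares were 2.05%, 3.02% and 0.530%, *IRX3* 93.6 and 66.6 CPM, *POU3F2* 23.4 and 23.2 CPM and posterior HOX genes 548 and 321 CPM in the E19 libraries, and forebrain and optic genes 60.5, 123 and 14.3 CPM. It left 17 genes higher in progenitors, 72 lower in E19 HSTS, and 257 higher and 155 lower in E16 HS. With progenitors weighted equally, *POU3F2* was at 42.1 and 34.6 CPM and forebrain and optic genes at 29.8 and 61.2 CPM in the E19 libraries, and *IRX3* was at 89.8 and posterior HOX genes at 375 CPM in E19 HS. The stricter filter of 500 genes and under 5% mitochondrial UMIs gave a share of 8.54% in E19 HS. TMM scaling gave 163 higher and 220 lower genes in E19 HSTS and 251 higher in E16 HS. A minimum of 100 UMIs, which tests fewer genes, gave 61 higher and 35 lower in E19 HSTS and 132 higher and 104 lower in E16 HS. The cause of the other differences was not tested. Leaving out the cells with the highest doublet scores moved none of these values past its error. Leaving out the member with the most UMIs of each gene, which was chosen after seeing the data, turned *SERPINA1*, *APOA2* and *AHSG* from lower to ratios of 1.60, 1.75 and 2.81 in E19 HSTS and *SERPINA1* to 1.59 in E16 HS. No paired analysis was possible because each condition is 1 library. Depth limits genes near 1 UMI in 301 progenitors of E16 HS.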
